A study of Mus musculus with 48 samples.

Results

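The 10 genes described here are genes by which fibroblasts are commonly recognized: *Thy1*, *Vim*, *Pdgfrb*, *Lum*, *Dcn*, *Postn*, *Fbn1*, *Fn1*, *S100a4*, and *Sparc*. They were taken by symbol from a table of read counts, in which each symbol named 1 of the 24264 transcripts, and all 10 were followed through 48 RNA-seq libraries of 20 conditions. The conditions trace the reprogramming of mouse embryonic fibroblasts (MEFs) to induced pluripotent stem cells (iPSCs) by either of 2 polycistronic cassettes, MKOS and OKMS. Both join *c-Myc*, *Klf4*, *Oct4*, and *Sox2*, but in different orders. They also differ in *Klf4*: the paper reports a long form in MKOS and a short form in OKMS. The short form lacks N-terminal amino acids and gave less KLF4 protein from such cassettes. The starting cells were wild-type (WT) MEFs and MEFs with either cassette, with 2 libraries each. MKOS and OKMS MEFs came from midgestation chimeric embryos made with TNG ESCs, an embryonic stem cell (ESC) line with a *Nanog*-GFP reporter, that carried a doxycycline-inducible cassette with a CAG-driven rtTA and an mOrange reporter in the *Sp3* locus. Reprogramming cultures received doxycycline and vitamin C, and in them the cassette-bearing MEFs were a minority among WT MEFs. Sorted populations, with 3 libraries each, came from day 10 by the design text, whereas the culture protocol gives 10 or 15 days. They were sorted as 2NG- (CD44- ICAM1- *Nanog*-GFP-), 3NG- (CD44- ICAM1+ *Nanog*-GFP-), and 3NG+ (CD44- ICAM1+ *Nanog*-GFP+) cells. All 3 kinds were taken as E-CAD+ cells with either cassette, whereas the 2NG- and 3NG- kinds were also taken as E-CAD- cells in OKMS. The end points, with 2 libraries each, were established MKOS and OKMS iPSC clones without doxycycline (-dox) or in 2i medium, the MKOS iPSC line D6, TNG ESCs without a cassette or with MKOS or OKMS, and E14 ESCs. The labels do not say whether libraries of a condition came from separate cultures, so the tests measure the spread between these libraries, which may be technical.

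Fibroblasts are the cells that make and hold together the matrix of connective tissue. *Thy1* encodes the surface glycoprotein CD90, and *Pdgfrb* the β-receptor for platelet-derived growth factor, which drives the growth and movement of mesenchymal cells. *Vim* encodes vimentin, the intermediate filament of mesenchymal cells. *Lum* and *Dcn* encode lumican and decorin, small leucine-rich proteoglycans that bind collagen fibrils, *Fbn1* encodes the microfibril protein fibrillin-1, and *Fn1* encodes fibronectin. *Postn* and *Sparc* encode the matricellular proteins periostin and osteonectin, which act on cells from within the matrix, and *S100a4* encodes a calcium-binding protein also known as fibroblast-specific protein 1, which macrophages also make. Loss of the fibroblast program and gain of E-cadherin in a mesenchymal-to-epithelial transition are early steps of reprogramming.

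The sequencing method (STRT) reads the 5′ end of a transcript, so each count below stems from the start of the gene, next to its promoter. RefSeq promoter sequences (GRCm38.p6) are given for the 5 of the 10 genes that the search described next returned. They were not chosen by expression or by motif. For plus-strand genes, *Postn* among them, only a start 101 bases after the position in the count table was kept. *Pdgfrb* was left out of the search, and the starts of the minus-strand genes *Fbn1* and *Sparc* were not matched to the count table. Each line gives the 100 bases before the annotated start, 5′ to 3′ on the strand of the gene, and capitals mark TATAAA.
Vim promoter (chr2:13574211-13574310, plus strand): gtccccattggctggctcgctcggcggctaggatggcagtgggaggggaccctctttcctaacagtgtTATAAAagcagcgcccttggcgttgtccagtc
Postn promoter (chr3:54361007-54361106, plus strand): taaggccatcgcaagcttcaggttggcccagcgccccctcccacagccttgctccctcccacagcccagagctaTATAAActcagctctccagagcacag
Fbn1 promoter (chr2:125506439-125506538, minus strand): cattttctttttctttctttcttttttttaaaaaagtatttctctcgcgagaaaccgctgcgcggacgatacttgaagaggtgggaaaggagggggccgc
S100a4 promoter (chr3:90603670-90603769, plus strand): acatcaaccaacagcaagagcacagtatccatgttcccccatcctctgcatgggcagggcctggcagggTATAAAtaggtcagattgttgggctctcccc
Sparc promoter (chr11:55420081-55420180, minus strand): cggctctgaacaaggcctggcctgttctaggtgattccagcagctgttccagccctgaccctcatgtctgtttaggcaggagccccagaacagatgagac
TATAAA began at position -32 of *Vim*, -26 of *Postn*, and -31 of *S100a4*, counted from the annotated start, and was not among the 100 bases of *Fbn1* or *Sparc*. It was found, on either strand, in 5.56% of 32851 promoters of the same length. TGACTCA (an AP-1 site), GGGCGG (a GC box), GGAATG (a TEAD site), and CACCTG (an E-box bound by Snai and Zeb factors) were searched on both strands and were in none of the 5 windows, against 1.88%, 24.7%, 4.71%, and 7.03% of all promoters. A match of letters is a description of these windows and does not show that a factor binds there.

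Libraries held between 1429717 and 14174725 reads on transcripts (median 6243255), and levels are given as CPM, counts per 1000000 of these reads. The level of 3 reads, taken as the floor, was 0.212 to 2.10 CPM, a limit from counting alone, as no molecular identifiers are mentioned. Summed, the members made up 0.746% to 0.900% of transcript reads in MEFs and 0.0287% to 0.0685% in iPSCs and ESCs. At least 99.7% of the reads of each gene mapped to 1 position. As a check of the labels, the sum of 7 pluripotency markers was 2.11 to 11.5 CPM in MEFs and 10747 to 23279.9 CPM in iPSCs and ESCs. *Cdh1*, which encodes E-cadherin, was at 4.24 to 51.5 CPM in E-CAD- and 62.6 to 182 CPM in E-CAD+ libraries. *Nanog* was at 7.59 to 75.7 CPM in *Nanog*-GFP- and 51.1 to 97.3 CPM in 3NG+ libraries, where MKOS 3NG- replicate 3, at 75.7 CPM, lay above MKOS 3NG+ replicate 1, at 51.1 CPM.

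The 3 kinds of MEFs all expressed the 10 genes, as their label implies, and the libraries of some genes lay apart between the kinds. *Thy1* was at 271 and 266 CPM in WT, 306 and 324 CPM in MKOS, and 533 and 603 CPM in OKMS MEFs, so both OKMS libraries were the highest. The proteoglycan genes were lowest in the OKMS libraries. *Lum* was at 239 and 249 CPM in WT, 301 and 187 CPM in MKOS, and only 20.04 and 23.9 CPM in OKMS MEFs, and *Dcn* at 164 and 154, 537 and 284, and 101 and 83.7 CPM. *Postn* was likewise lowest in OKMS MEFs, at 43.1 and 39.5 CPM against 160.2 and 138 CPM in MKOS and 107 and 126 CPM in WT MEFs. The other members lay in a narrower range: *Vim* at 1724 to 3109 CPM, *S100a4* at 1584 to 3037 CPM, *Sparc* at 1576 to 2117 CPM, *Fn1* at 669 to 1035 CPM, *Fbn1* at 109 to 187 CPM, and *Pdgfrb* at 36.4 to 59.6 CPM over the 6 libraries. In the test of OKMS against MKOS MEFs, edgeR's quasi-likelihood test with Benjamini-Hochberg adjustment over 15630 genes called none of the 10 members, against 0.0256% of all genes called lower and 0.0768% higher, while the libraries of 7 members and of 36.1% of all genes did not overlap. Before adjustment, *Lum* (log2 fold change -3.55 ± 1.68 [SE], FDR = 0.723), *Dcn* (log2 fold change -2.22 ± 0.78 [SE], FDR = 0.472), and *Postn* (log2 fold change -1.91 ± 0.69 [SE], FDR = 0.492) were the 3 members with p under 0.05, against 6.63% of all genes, and DESeq2 called 0. A fit of these 2 groups alone called 3 members and 2.98% of all genes tested in it. Markers of other cell types differed between these MEFs too. The sum of 7 smooth muscle and pericyte genes was 3909 to 4275 CPM in OKMS, 1178 to 1467 CPM in MKOS, and 3119 to 3189.8 CPM in WT MEFs, and that of 8 macrophage genes 109 to 121, 14.8 to 17.7, and 230.0 to 245 CPM, with *Ptprc* and *Emr1* at 0 in MKOS MEFs only. Their part in the levels of the members was not tested.

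**Figure D1:**
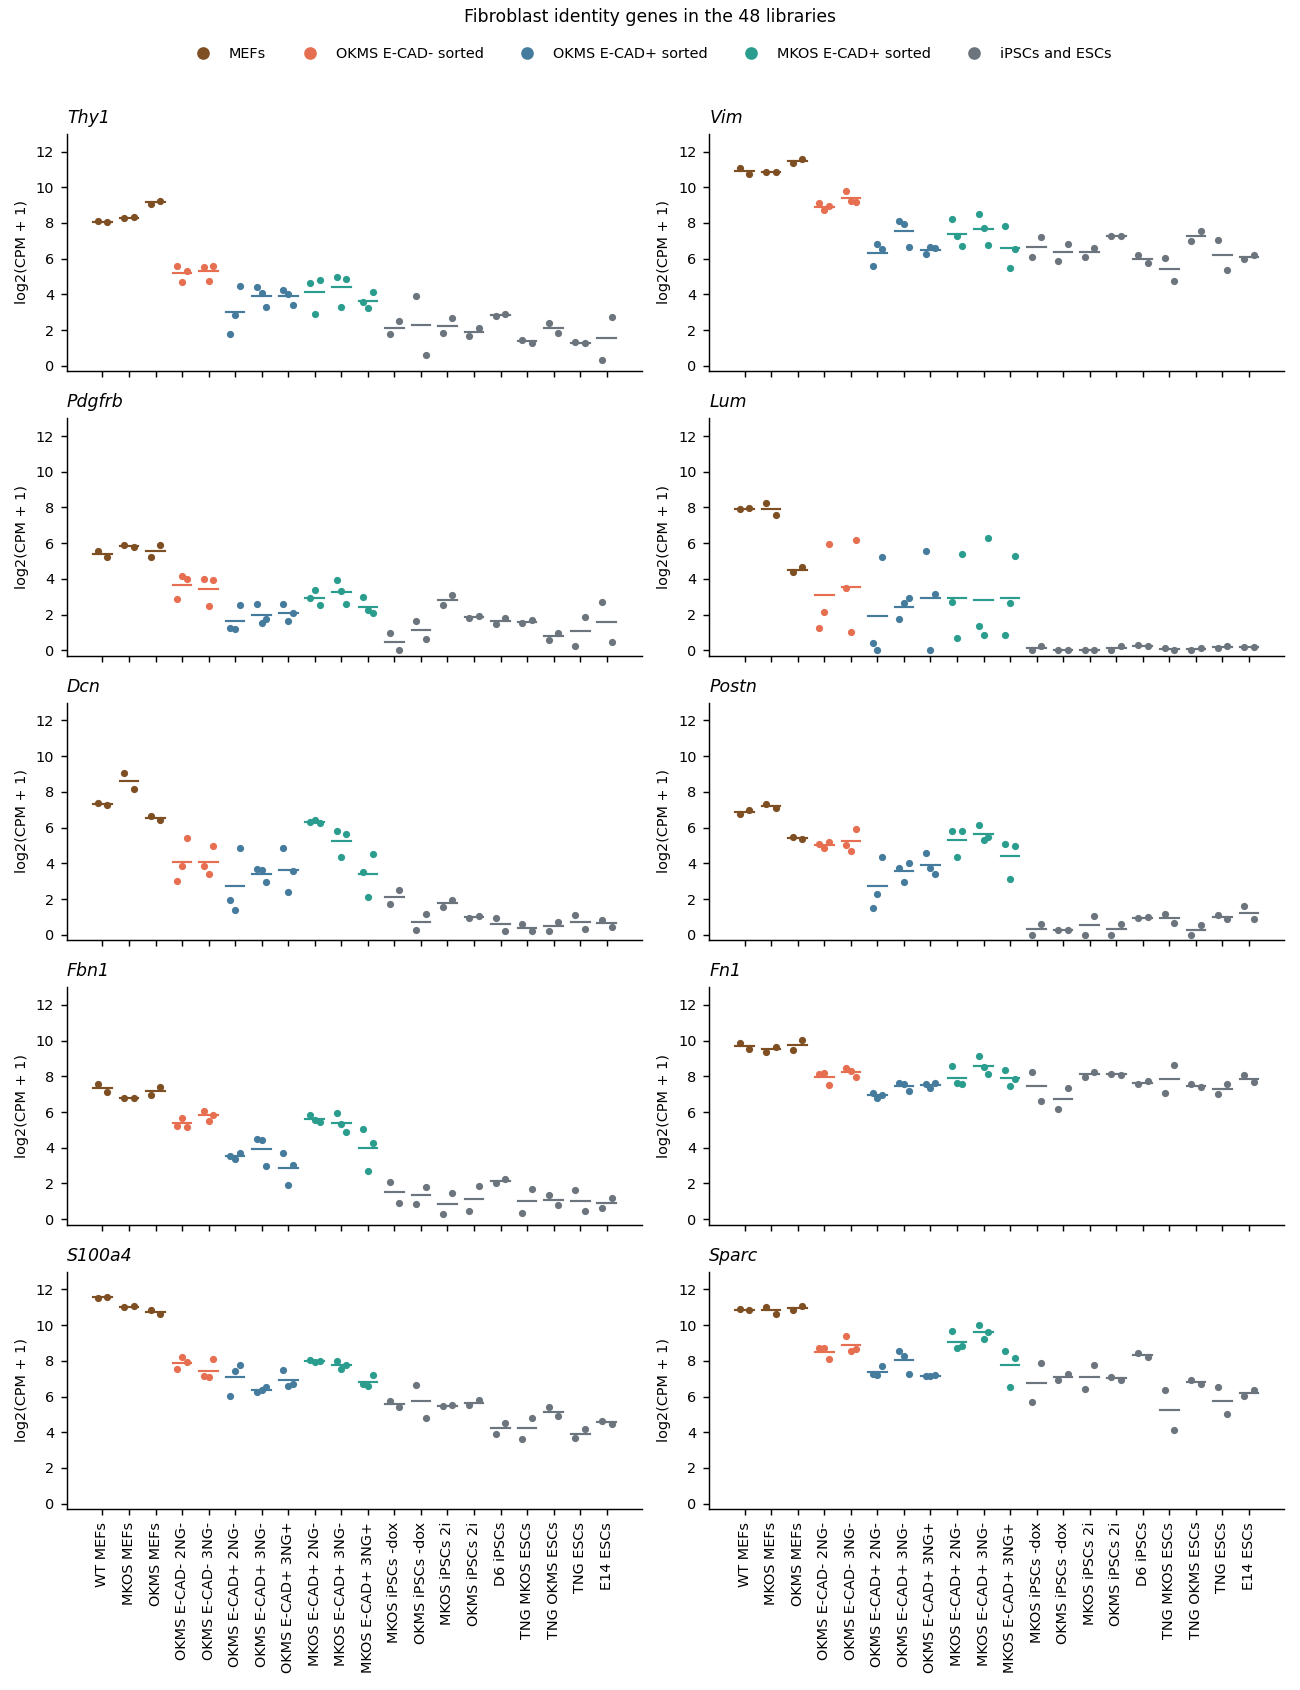
Level of each of the 10 genes in all 48 libraries, as log2(CPM + 1) on the y axis and the 20 conditions on the x axis. Points are libraries and bars the mean of the log values of a condition. In each panel the 6 MEF libraries are at the top, except where *Lum*, *Postn*, and *Dcn* of sorted libraries reach the OKMS MEFs, and *Vim*, *Fn1*, *Sparc*, and *S100a4* stay well above 0 in iPSCs and ESCs.

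From MEFs to sorted 2NG- cells, most of the genes fell on both routes. In MKOS, 9 of 10 members were called lower and none higher, against 12% of all genes called lower and 15% higher, and the median log2 fold change of the members was -2.76, against 0 over all genes. In OKMS, 9 were called lower in E-CAD+ cells (all genes 13.5% lower and 15.7% higher, median of the members -3.41) and 8 in E-CAD- cells (all genes 10.1% lower and 11.7% higher, median -2.08). The E-CAD+ and E-CAD- comparisons share the OKMS MEF libraries. In bulk RNA, a lower level can be less RNA per cell or fewer cells that express the gene, and these cannot be told apart.

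*Thy1* had the lowest estimate of the 10 genes in all 3 comparisons. It was at 23.6, 6.35, and 27.2 CPM in MKOS 2NG- libraries, 2.39, 6.12, and 21.1 CPM in OKMS E-CAD+ 2NG-, and 47.2, 25.1, and 38.5 CPM in OKMS E-CAD- 2NG- libraries, and no library came near the MEF level. The fall was 16.8-fold in MKOS (log2 fold change -4.07 ± 0.67 [SE], FDR = 1.11e-05), 48.4-fold in OKMS E-CAD+ (log2 fold change -5.60 ± 0.72 [SE], FDR = 9.99e-08), and 15.5-fold in OKMS E-CAD- cells (log2 fold change -3.96 ± 0.67 [SE], FDR = 2.31e-05). The mean of *Thy1* in E-CAD- cells was 6.50% of the OKMS MEF mean, so its RNA was low also in cells sorted as negative for surface E-cadherin. *Cdh1* RNA in these E-CAD- libraries was at 20.5, 51.5, and 4.24 CPM, against 0 and 0.687 CPM in OKMS MEFs. *Pdgfrb* was at 6.73, 9.30, and 4.74 CPM in MKOS, 1.36, 1.29, and 4.87 CPM in OKMS E-CAD+, and 6.26, 16.8, and 15.00 CPM in OKMS E-CAD- 2NG- libraries. It fell in MKOS (log2 fold change -3.08 ± 0.73 [SE], FDR = 0.00122) and OKMS E-CAD+ cells (log2 fold change -3.94 ± 0.76 [SE], FDR = 9.85e-05). Its fall in E-CAD- cells (log2 fold change -1.93 ± 0.71 [SE], FDR = 0.0458) was no longer called when any 1 of its 5 libraries was left out.

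*Vim* kept more of its level in E-CAD- than in E-CAD+ cells. It was at 544, 426, and 484 CPM in OKMS E-CAD- 2NG- libraries (16.98% of the OKMS MEF mean) and at 47.7, 114, and 91.99 CPM in E-CAD+ 2NG- libraries (2.96%). The fall from OKMS MEFs was 5.99-fold in the former (log2 fold change -2.58 ± 0.51 [SE], FDR = 0.000177) and 31.4-fold in the latter (log2 fold change -4.97 ± 0.55 [SE], FDR = 5.57e-09). In MKOS 2NG- libraries *Vim* was at 302, 156, and 102 CPM, with replicate 1 the highest, and lay 10.1-fold below MKOS MEFs (log2 fold change -3.34 ± 0.52 [SE], FDR = 3.82e-06).

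Among the genes of fibrillar matrix, *Fn1* and *Fbn1* had the smallest estimates in MKOS. *Fn1* was at 375, 200.2, and 188 CPM in MKOS 2NG- libraries, 2.92-fold below MKOS MEFs (log2 fold change -1.55 ± 0.35 [SE], FDR = 0.000797). It fell 6.60-fold in OKMS E-CAD+ cells (log2 fold change -2.72 ± 0.36 [SE], FDR = 1.75e-07), to 132, 111, and 123 CPM, and 3.50-fold in E-CAD- cells (log2 fold change -1.81 ± 0.35 [SE], FDR = 0.000166). The 3 OKMS E-CAD+ values of *Fn1* lie close together and below all MKOS values. *Fbn1* was at 56.1, 46.1, and 42.8 CPM in MKOS 2NG- libraries, below both MKOS MEF libraries, but was the 1 member not called there (log2 fold change -1.22 ± 0.53 [SE], FDR = 0.0818). In OKMS it fell in both E-CAD+ cells, to 10.6, 9.35, and 12.3 CPM (log2 fold change -3.62 ± 0.56 [SE], FDR = 3.60e-06), and E-CAD- cells, to 36.6, 50.5, and 35.4 CPM (log2 fold change -1.87 ± 0.53 [SE], FDR = 0.00881), the latter call being lost without OKMS MEFs replicate 2.

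The matricellular genes and *S100a4* differed from each other. *Sparc* was at 820.0, 419.7, and 448 CPM in MKOS 2NG- libraries (30.7% of the MKOS MEF mean) and at 152, 147, and 205 CPM in OKMS E-CAD+ 2NG- libraries (8.49%). It fell 3.36-fold in MKOS (log2 fold change -1.75 ± 0.51 [SE], FDR = 0.00862), a call lost without MKOS MEFs replicate 1, and 10.8-fold in OKMS (log2 fold change -3.43 ± 0.53 [SE], FDR = 3.33e-06). *Postn* in OKMS E-CAD- 2NG- libraries, at 32.4, 27.8, and 35.1 CPM, was not called against the 43.1 and 39.5 CPM of OKMS MEFs (log2 fold change -0.42 ± 0.61 [SE], FDR = 0.695), although the values did not overlap. It fell in OKMS E-CAD+ cells, to 1.87, 3.87, and 19.3 CPM (log2 fold change -2.05 ± 0.62 [SE], FDR = 0.0103), and in MKOS cells, to 56.01, 19.2, and 54.3 CPM (log2 fold change -1.83 ± 0.60 [SE], FDR = 0.0203). The OKMS call was lost without OKMS MEFs replicate 1 or OKMS E-CAD+ 2NG- replicate 1 or 2, or with only these groups in the fit, and the MKOS call without MKOS MEFs replicate 1 or MKOS 2NG- replicate 2, or with the 3 kinds of MEFs averaged. *S100a4* fell by a like amount on each route, and no setting tried removed a call: it fell 8.51-fold in MKOS (log2 fold change -3.09 ± 0.39 [SE], FDR = 7.35e-08), 10.5-fold in OKMS E-CAD+ (log2 fold change -3.39 ± 0.39 [SE], FDR = 1.17e-08), and 7.41-fold in OKMS E-CAD- cells (log2 fold change -2.89 ± 0.39 [SE], FDR = 4.11e-07). Its values were 259, 245, and 258 CPM in MKOS, 63.2, 170.2, and 220.0 CPM in OKMS E-CAD+, and 184, 294, and 242 CPM in OKMS E-CAD- 2NG- libraries. The summed macrophage markers moved with the sorted cells too, above the MEFs with the same cassette, and all 8 genes were detected. Sums were 157 to 1546 CPM in MKOS, 129 to 301 CPM in OKMS E-CAD+, and 135 to 909 CPM in OKMS E-CAD- 2NG- libraries. Most of it was *Lyz2* (lysozyme), at 232, 269, and 122 CPM in OKMS E-CAD+ 2NG- against 110 and 99.1 CPM in OKMS MEFs. *Csf1r* went the other way there, at 0.341, 0, and 0.494 CPM against 2.41 and 1.95 CPM, while *Ptprc* and *Emr1* overlapped the MEFs. The part of macrophage markers in the *S100a4* level was not tested.

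The proteoglycan genes, whose MEF libraries did not overlap between the cassettes, fell in MKOS, but in OKMS only *Dcn* was called. *Dcn* fell 5.44-fold in MKOS, to 78.04, 84.1, and 74.7 CPM (log2 fold change -2.44 ± 0.68 [SE], FDR = 0.00604), and 7.05-fold in OKMS E-CAD+ cells, to 2.90, 1.61, and 27.7 CPM (log2 fold change -2.82 ± 0.70 [SE], FDR = 0.00199). It also fell in OKMS E-CAD- cells, to 7.02, 13.4, and 41.6 CPM (log2 fold change -2.22 ± 0.70 [SE], FDR = 0.0177), and in both OKMS populations replicate 3 was the highest. The MKOS call of *Dcn* was lost without MKOS MEFs replicate 1 or with the 3 kinds of MEFs averaged as the start, and the E-CAD- call without OKMS MEFs replicate 1 or E-CAD- 2NG- replicate 1 or 2. *Lum* fell in MKOS, to 5.41, 0.590, and 40.2 CPM (log2 fold change -4.04 ± 1.46 [SE], FDR = 0.0358), a call lost without either MKOS MEF library, without 2NG- replicate 1 or 2, with the 3 kinds of MEFs averaged, or with DESeq2. In OKMS it was at 0.341, 0, and 36.97 CPM in E-CAD+ 2NG- libraries (log2 fold change -0.52 ± 1.41 [SE], FDR = 0.832) and 1.33, 3.43, and 61.3 CPM in E-CAD- 2NG- libraries (log2 fold change -0.05 ± 1.42 [SE], FDR = 1.00), where replicate 3 exceeded both OKMS MEF libraries and replicates 1 and 2 lay below them.

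**Figure D2:**
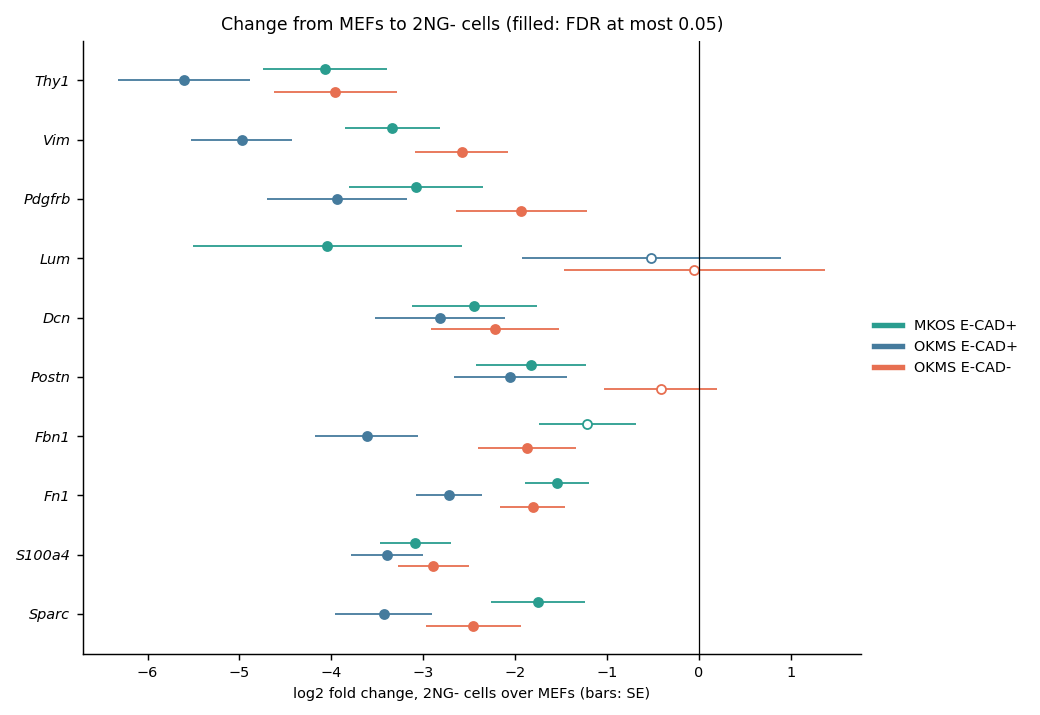
Log2 fold change of each gene from MEFs to 2NG- cells of the same cassette (x axis), with bars for the SE, for MKOS E-CAD+, OKMS E-CAD+, and OKMS E-CAD- cells. Filled points have an FDR of at most 0.05. *Thy1* and *Vim* moved the most in OKMS E-CAD+ cells, and *Lum* has the widest bars.

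Expressed as a share of the MEFs with the same cassette, what was left differed more between genes than between the 2NG- and 3NG- gates. The median over the 10 genes was 15.7% in MKOS 2NG- and 14.4% in MKOS 3NG- cells, 24.7% and 24.1% in the OKMS E-CAD- cells, and 8.66% and 10.9% in the OKMS E-CAD+ cells. *Thy1* was under 10% in all 8 sorted populations, at 1.74% to 7.15%. *Fn1* was at 13.9% to 54.99%. No sorted, iPSC, or ESC library reached the lowest MEF value of *Thy1*, *Vim*, *Pdgfrb*, *Fbn1*, *Fn1*, *S100a4*, or *Sparc*. Of these 42 libraries, 7 reached it for *Lum*, 5 for *Postn*, and 1 for *Dcn*, and in each of these 3 genes an OKMS MEF library was the lowest.

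**Figure D3:**
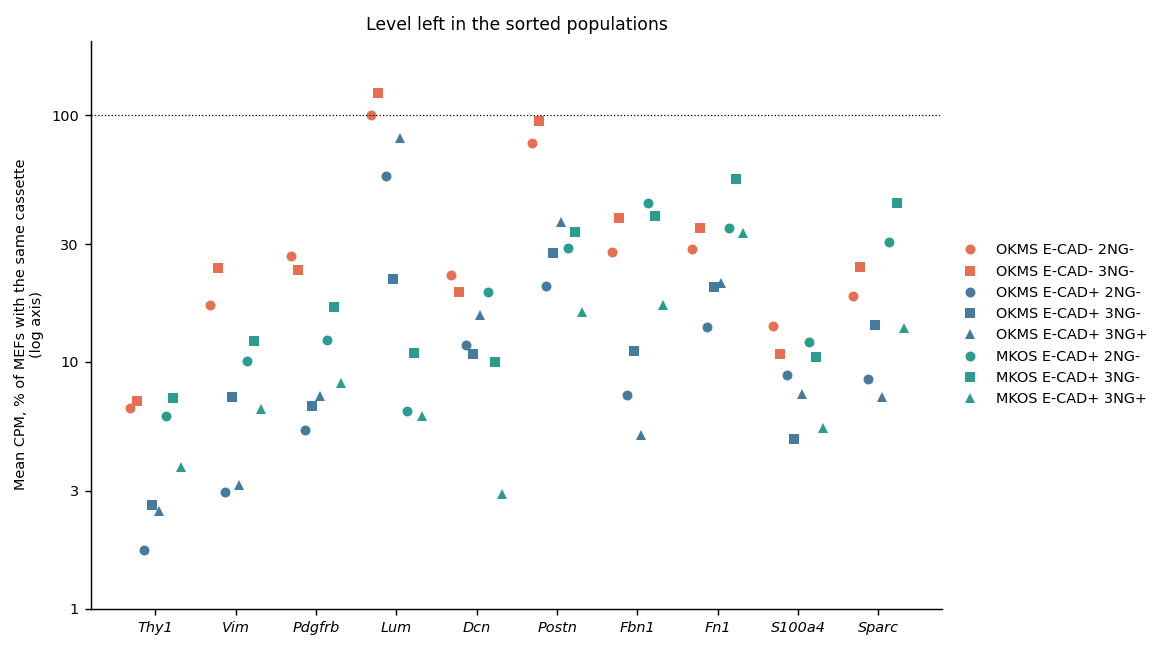
Mean level of each gene in the 8 sorted populations as a percentage of the mean of MEFs with the same cassette (y axis, log scale). Circles are 2NG-, squares 3NG-, and triangles 3NG+ cells, and the dotted line marks 100%. *Thy1* lies under 10% throughout, while *Lum* in OKMS E-CAD- cells reaches 100% and 123% of the low OKMS MEF level.

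E-CAD- and E-CAD+ cells of OKMS, sorted by E-cadherin at the surface, were compared next. All 10 estimates were lower in E-CAD+ cells, both among 2NG- cells (median log2 fold change -1.31) and among 3NG- cells (median -1.46), with medians over all genes of 0 and 6e-05. *Vim* was the only member called: it was 5.25-fold lower in E-CAD+ 2NG- cells (log2 fold change -2.39 ± 0.48 [SE], FDR = 0.00227). So 1 of 10 members was called lower in 2NG- cells, against 0.691% of all genes called lower and 1.69% higher, and 0 in 3NG- cells, against 0.166% and 1.59%. Before adjustment 7 members had p under 0.05 in each gate, against 14.7% of all genes in 2NG- and 12% in 3NG- cells, and DESeq2 called 2 in each, against 4.21% and 3.18% of the genes it tested. In 3NG- cells *Vim* was at 876, 599.7, and 573 CPM in E-CAD- and 273, 247, and 98.4 CPM in E-CAD+ libraries (log2 fold change -1.64 ± 0.46 [SE], FDR = 0.0544), with no overlap. *Fbn1* likewise did not overlap: it was at 65.6, 44.6, and 57.2 CPM in E-CAD- and 21.3, 20.5, and 6.83 CPM in E-CAD+ 3NG- libraries (log2 fold change -1.68 ± 0.50 [SE], FDR = 0.0821), and the same held among 2NG- cells (log2 fold change -1.75 ± 0.51 [SE], FDR = 0.0559). *Postn* in E-CAD- 3NG- libraries was at 32.04, 25.1, and 59.9 CPM and in E-CAD+ 3NG- libraries at 12.5, 6.67, and 15.1 CPM (log2 fold change -1.66 ± 0.58 [SE], FDR = 0.170). *Dcn*, in contrast, overlapped both among 2NG- (log2 fold change -0.60 ± 0.64 [SE], FDR = 0.751) and among 3NG- cells (log2 fold change -0.71 ± 0.67 [SE], FDR = 0.733). Smooth muscle and pericyte markers and, on average, macrophage markers were lower in E-CAD+ cells as well, whereas epithelial and pluripotency markers were higher. The sum of 8 epithelial genes, *Cdh1* among them, was 97.0 to 224 CPM in E-CAD- and 820 to 1152 CPM in E-CAD+ 2NG- libraries. That of the 7 pluripotency markers was 189 to 311 against 834 to 3156 CPM, and 3NG- cells differed the same way. The sum of the 7 smooth muscle and pericyte genes was 202 to 516 CPM in E-CAD- and 31.04 to 103 CPM in E-CAD+ 2NG- libraries, and 244 to 478 against 92.3 to 217 CPM in 3NG- libraries, without overlap and with no gene at 0. The macrophage sum averaged 588 against 227 CPM in 2NG- and 471 against 251 CPM in 3NG- libraries, with overlap. Their part in the differences of the members was not tested.

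Between the 2NG- and 3NG- gates, which differ in ICAM1, no member was called in MKOS, OKMS E-CAD+, or OKMS E-CAD- cells. Of all genes, 0.0384%, 0%, and 0.032% were called lower in 3NG- and 0.352%, 0.0384%, and 0.0128% higher. Before adjustment 0, 2, and 0 members had p under 0.05, against 7.41%, 5.09%, and 6.63% of all genes, and DESeq2 called 0 in all 3. The 2 were *Vim* (log2 fold change 1.23 ± 0.46 [SE], FDR = 0.889) and *S100a4* (log2 fold change -0.92 ± 0.35 [SE], FDR = 0.889) in OKMS E-CAD+ cells, which had opposite signs. *Vim* was at 273, 247, and 98.4 CPM and *S100a4* at 76.1, 81.9, and 91.8 CPM in the 3NG- libraries. MKOS 3NG- cells had the highest mean among sorted populations of *Sparc* (1020.5, 604, and 792 CPM) and *Fn1* (554, 364, and 285 CPM), in which replicate 1 was the highest, as it was for *Postn* (68.8, 38.2, and 43.7 CPM) and *Fbn1* (60.5, 39.03, and 28.9 CPM).

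On gain of *Nanog*-GFP, the estimates of all 10 members were lower in MKOS 3NG+ than in MKOS 3NG- cells (median -0.85, all genes -0.039), but none was called, against 1.02% of all genes called lower and 0.557% higher. Before adjustment, 4 had p under 0.05, against 16% of all genes, and DESeq2 called 0. The nearest to a call was *Sparc*, at 370.4, 92.1, and 289 CPM in 3NG+ libraries (log2 fold change -1.54 ± 0.47 [SE], FDR = 0.0787), and the 3NG+ values did not overlap the 3NG- values. *Dcn* was at 54.5, 19.5, and 49.00 CPM in 3NG- and 10.3, 3.36, and 22.2 CPM in 3NG+ libraries (log2 fold change -1.58 ± 0.65 [SE], FDR = 0.217). In OKMS, 3 of 10 estimates were lower and 7 higher in 3NG+ cells (median 0.34, all genes -0.059), and none was called, against 3.21% of all genes called lower and 3.06% higher. Before adjustment 2 had p under 0.05, against 21.5% of all genes, and DESeq2 called 0. *Vim* was at 74.4, 101, and 96.3 CPM (log2 fold change -0.98 ± 0.46 [SE], FDR = 0.209) and *Sparc* at 143, 141, and 144 CPM (log2 fold change -0.76 ± 0.47 [SE], FDR = 0.347) in OKMS 3NG+ libraries, and *S100a4* was at 179.6, 96.5, and 104 CPM, above all 3NG- libraries (log2 fold change 0.82 ± 0.35 [SE], FDR = 0.153). The test of the difference between the 2 changes called no member, against 0.0128% of all genes called lower and 0.0128% higher. Before adjustment 2 members had p under 0.05, against 7.44% of all genes, namely *S100a4* (log2 fold change 1.60 ± 0.49 [SE], FDR = 0.354) and *Dcn* (log2 fold change 2.43 ± 0.93 [SE], FDR = 0.509), and DESeq2 called 0.

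OKMS and MKOS E-CAD+ cells were then compared at each gate. Among 2NG- cells, 4 of 10 members were called lower in OKMS and none higher, against 2.84% and 2.23% of all genes, and all 10 estimates were below 0 (median -1.14, all genes -0.0029). The 4 were *Dcn* (log2 fold change -2.60 ± 0.66 [SE], FDR = 0.0127), *Postn* (log2 fold change -2.14 ± 0.58 [SE], FDR = 0.0208), *Fbn1* (log2 fold change -2.05 ± 0.51 [SE], FDR = 0.0110), and *Sparc* (log2 fold change -1.64 ± 0.47 [SE], FDR = 0.0320). The MKOS values of *Dcn* were 78.04, 84.1, and 74.7 CPM and the OKMS values 2.90, 1.61, and 27.7 CPM, and those of *Fbn1* were 56.1, 46.1, and 42.8 CPM against 10.6, 9.35, and 12.3 CPM, without overlap in either gene. *Postn* overlapped by 1 library: MKOS replicate 2 was at 19.2 CPM and OKMS replicate 3 at 19.3 CPM. Leaving out 1 library at a time left 0 to 4 members called: OKMS replicate 1 or 2 removed the calls of *Dcn*, *Postn*, and *Sparc*, OKMS replicate 2 also that of *Fbn1*, MKOS replicate 1 those of *Postn* and *Sparc*, and MKOS replicate 3 that of *Postn*. With only these groups in the fit, the calls of *Dcn* and *Postn* were lost. *Thy1* (log2 fold change -0.73 ± 0.60 [SE], FDR = 0.548), *Vim* (log2 fold change -1.07 ± 0.46 [SE], FDR = 0.189), and *Pdgfrb* (log2 fold change -1.21 ± 0.68 [SE], FDR = 0.341) overlapped between the cassettes and were not called. The smooth muscle and pericyte markers, 7 genes of which MEFs express all, moved with the cassette as well: their sum was 212 to 1557 CPM in MKOS and 31.04 to 103 CPM in OKMS E-CAD+ 2NG- libraries, and their part in the difference was not tested. Among 3NG- cells, *S100a4* alone was called (log2 fold change -1.28 ± 0.35 [SE], FDR = 0.0391), 1 of 10 against 1.38% of all genes called lower and 0.787% higher, and the call was lost when any 1 of the 6 libraries was left out. Its values were 255, 183, and 220.3 CPM in MKOS and 76.1, 81.9, and 91.8 CPM in OKMS 3NG- libraries. *Dcn* (log2 fold change -1.92 ± 0.66 [SE], FDR = 0.128), *Postn* (log2 fold change -2.02 ± 0.58 [SE], FDR = 0.0525), *Fbn1* (log2 fold change -1.29 ± 0.50 [SE], FDR = 0.190), *Fn1* (log2 fold change -1.08 ± 0.32 [SE], FDR = 0.0675), and *Sparc* (log2 fold change -1.42 ± 0.47 [SE], FDR = 0.110) did not overlap between the cassettes and were not called. The share of all genes without overlap was not counted at this gate, so the lack of overlap cannot be weighed. Before adjustment 7 members had p under 0.05 at this gate, against 2340 of 15630 genes. *Vim* had an estimate near 0 (log2 fold change -0.028 ± 0.45 [SE], FDR = 1.00). Among 3NG+ cells, no member was called, against 0.345% of all genes called lower and 0.339% higher, 0 had an unadjusted p under 0.05, against 12.2% of all genes, and DESeq2 called 0. The libraries of all 10 overlapped between the cassettes, while those of 17.2% of all genes did not.

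**Figure D4:**
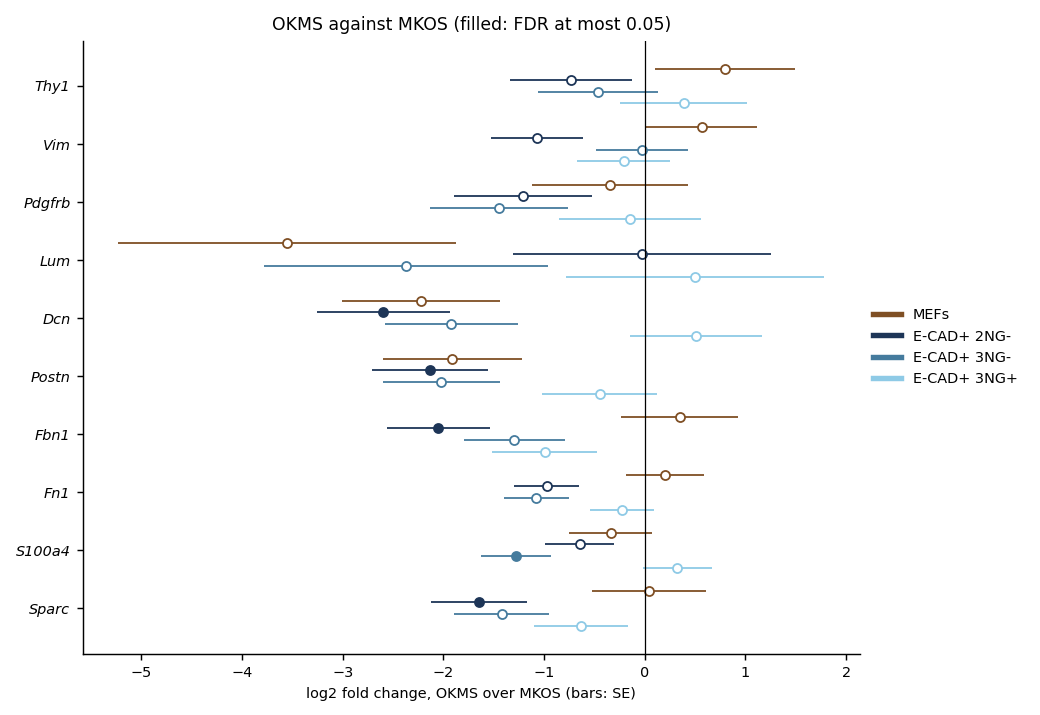
Log2 fold change of OKMS over MKOS (x axis) for each gene in MEFs and in E-CAD+ 2NG-, 3NG-, and 3NG+ cells, with bars for the SE. Filled points have an FDR of at most 0.05. *Dcn* and *Postn* have estimates below 0 in MEFs, 2NG-, and 3NG- cells but are called in 2NG- cells only, whereas *Fbn1* and *Sparc*, called in 2NG- cells too, have estimates of 0.35 and 0.04 in MEFs.

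The change from MEFs to E-CAD+ 2NG- cells was also compared between the cassettes. The test called no member, against 0.793% of all genes called lower and 0.557% higher. Before adjustment, 4 members had p under 0.05, against 13.5% of all genes, and DESeq2 called 0. For *Dcn*, the OKMS change minus the MKOS change was -0.37 ± 0.97 (log2 ± SE, FDR = 1.00), and for *Postn* -0.22 ± 0.87 (FDR = 1.00), with errors larger than the estimates. For *Fbn1* it was -2.40 ± 0.78 (FDR = 0.114), for *Sparc* -1.68 ± 0.74 (FDR = 0.291), for *Vim* -1.64 ± 0.72 (FDR = 0.295), and for *Fn1* -1.18 ± 0.51 (FDR = 0.282), all toward a larger fall in OKMS but none called. *Lum* had the opposite sign at 3.52 ± 2.05 (FDR = 0.475), with OKMS MEFs at the level given above.

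*Lum* in the sorted cells followed the replicate number in most populations. Over the 8 populations it was at 0.341 to 45.4 CPM (median 1.99) in replicates numbered 1, 0 to 5.33 CPM (median 0.916) in those numbered 2, and 6.59 to 77.4 CPM (median 39.03) in those numbered 3. Replicate 3 was the highest in 7 of the 8 populations, and in OKMS 3NG+ cells, at 45.4, 0, and 8.01 CPM, replicate 1 was. *Lyz2*, which encodes the lysozyme of macrophages, was lowest in replicate 3 of all 8 populations, at 18.1 to 139 CPM against 56.1 to 1739 CPM in replicate 1 and 207 to 974 CPM in replicate 2, and the low *Lyz2* value of replicate 1 was the OKMS 3NG+ library with high *Lum*. WT MEFs held both, with *Lum* at 239 and 249 and *Lyz2* at 199 and 223 CPM. No other member was highest in replicate 3 in more than 4 populations, and *Vim* was in none. Neither labels nor methods say what a replicate number stands for, and whether cells other than the reprogramming ones carried *Lum* was not tested. In sorted libraries the SE of *Lum* (at least 1.27 on the log2 scale) was the largest of the members, so its differences between gates were not resolved.

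**Figure D5:**
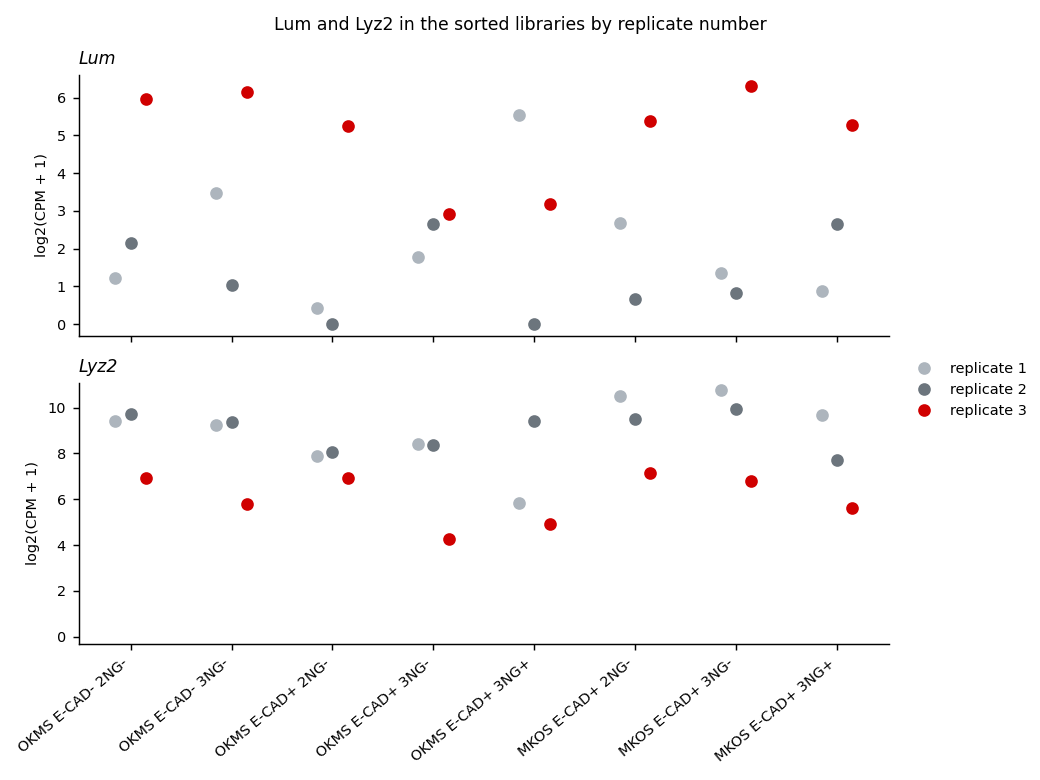
*Lum* (top) and *Lyz2* (bottom) in the 24 sorted libraries as log2(CPM + 1) on the y axis, by population on the x axis and by replicate number (gray 1 and 2, red 3). Replicate 3 has the highest *Lum* in 7 of 8 populations and the lowest *Lyz2* in all 8.

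From 3NG+ cells to iPSCs without doxycycline, *Postn* fell with both cassettes, *Fbn1* in MKOS, and *Dcn* in OKMS, whereas the other members, among them *Vim*, *Fn1*, and *Sparc*, were not called. In MKOS, 2 of 10 members were called lower, against 1.32% of all genes called lower and 0.825% higher (median -1.88, all genes 0), namely *Postn* (log2 fold change -6.76 ± 1.05 [SE], FDR = 7.66e-05) and *Fbn1* (log2 fold change -3.06 ± 0.67 [SE], FDR = 0.00752). *Postn* went from 33.2, 7.70, and 30.6 CPM to 3 reads over both iPSC libraries, a ratio of 121 with an exact Poisson 95% interval of 41.6 to 589 that covers counting error in the iPSCs only. *Fbn1* went from 31.97, 5.53, and 18.5 to 3.32 and 0.887 CPM, and its call was lost without replicate 2 of the iPSCs. In OKMS, *Postn* (log2 fold change -6.27 ± 1.13 [SE], FDR = 0.00253) and *Dcn* (log2 fold change -4.39 ± 1.06 [SE], FDR = 0.0354) were called, again 2 of 10, against 0.313% of all genes called lower and 0.301% higher (median -1.29, all genes 0). *Postn* went from 23.3, 12.6, and 9.59 CPM to 2 reads over both libraries, a ratio of 79.4 (interval 21.97 to 655), and its call was lost without replicate 1 of the iPSCs. DESeq2 called 5 members in MKOS and 3 in OKMS, against 4.3% and 1.79% of the genes it tested. *Dcn* went from 27.9, 4.20, and 10.9 to 0.206 and 1.25 CPM, and leaving out replicate 1 of the 3NG+ cells or either iPSC library, or fitting only these groups, removed its call. *Lum* had no read in either OKMS iPSC library. Against a floor of 3 reads over both libraries, this was at least 62.1-fold below the mean of OKMS 3NG+ cells. That mean came from libraries at 45.4, 0, and 8.01 CPM, so 3NG+ replicate 2 had no read either. In MKOS iPSCs *Lum* had 1 read, a ratio of 224 (interval 40.2 to 8851), from 3NG+ libraries at 0.841, 5.33, and 37.8 CPM. In neither cassette was it called (FDR = 0.169 in MKOS and 0.250 in OKMS). *Lum* was called in both with the replicate number as a block (FDR = 0.0435 and 0.0118) and with DESeq2 (FDR = 0.0332 and 0.0229). It was also called in both without the 7 libraries that one alternative leaves out (FDR = 0.00104 and 0.00173). That alternative takes no library from the MKOS comparison. From the OKMS comparison it takes 3NG+ replicate 2, which had no *Lum* read. With *Lum* at that bound the median of the OKMS comparison stays as given. *Vim* was at 67.9 and 145 CPM in MKOS and 56.7 and 114 CPM in OKMS iPSCs, within the range of their 3NG+ libraries in MKOS (log2 fold change -0.15 ± 0.51 [SE], FDR = 0.966) and overlapping it in OKMS (log2 fold change -0.12 ± 0.52 [SE], FDR = 0.991). *Sparc* was at 49.9 and 238 CPM in MKOS (log2 fold change -0.80 ± 0.53 [SE], FDR = 0.521) and 119 and 154 CPM in OKMS iPSCs (log2 fold change -0.10 ± 0.52 [SE], FDR = 0.999), also overlapping the 3NG+ libraries.

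Over all 10 iPSC and 8 ESC libraries, the members split by level. *Lum* was at 0 in 8 of the 18 libraries and never above 0.207 CPM, with at most 2 reads in a library. *Postn* never exceeded 1.99 CPM, *Fbn1* 3.85 CPM, and *Dcn* 4.61 CPM. *Pdgfrb* and *Thy1* reached 7.70 and 14.2 CPM. The other 4 genes were expressed in every library: *Fn1* at 70.7 to 393 CPM, *Vim* at 26.3 to 183 CPM, *Sparc* at 16.3 to 347 CPM, and *S100a4* at 11.3 to 99.2 CPM. *Sparc* stood highest in D6 iPSCs, at 347 and 302 CPM, above the other 16 libraries.

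With the 20 conditions put in order of their mean CPM, the 3 kinds of MEFs came first for every member except *Lum* and *Postn*, in which sorted populations stood above OKMS MEFs. Next after the MEFs came an OKMS E-CAD- population for *Thy1*, *Vim*, *Pdgfrb*, and *Fbn1*, and an MKOS 2NG- or 3NG- population for *Dcn*, *Fn1*, *S100a4*, and *Sparc*. Most neighbours in these orders had overlapping libraries. Of 19 neighbouring pairs, 6 did not overlap for *S100a4*, 5 for *Thy1* and *Dcn*, 4 for *Vim*, 3 for *Lum*, *Fbn1*, and *Sparc*, 2 for *Postn*, and 1 for *Pdgfrb* and *Fn1*. The step from the lowest MEFs to the next population was such a gap for *Thy1*, *Vim*, *Pdgfrb*, *Fbn1*, *Fn1*, *S100a4*, and *Sparc*, but not for *Dcn*, in which an MKOS 2NG- library lay within the OKMS MEFs. Most iPSC and ESC conditions overlapped their neighbours, so their order was not resolved.

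The 2i medium, which blocks MEK and GSK3 and holds ESCs in a naive state, was compared with culture without it over the MKOS and OKMS iPSCs. No member was called, against 2.45% of all genes called lower and 1.89% higher, while 2 had p under 0.05 before adjustment, against 17.4% of all genes, and DESeq2 called 1, against 7.45% of the genes it tested. *Pdgfrb* was at 4.76 and 7.70 (MKOS) and 2.47 and 2.81 CPM (OKMS) in 2i against 0.933 and 0 and 2.06 and 0.534 CPM without 2i (log2 fold change 2.17 ± 0.69 [SE], FDR = 0.0617), and these values did not overlap. *Fn1* was at 252 and 304 and 279.7 and 273 CPM in 2i against 301 and 98.5 and 70.7 and 159.8 CPM (log2 fold change 0.78 ± 0.28 [SE], FDR = 0.106), with overlap. *Lum* was at the floor on both sides and gives no fold change, and the median of the other 9 members was -0.093.

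Against TNG ESCs with the same cassettes, iPSCs without doxycycline differed in 1 of 10 members, against 1.13% of all genes called higher and 0.269% lower. *S100a4* was at 53.1 and 40.98 CPM in MKOS and 99.2 and 27.3 CPM in OKMS iPSCs, against 11.3 and 27.05 and 42.2 and 28.6 CPM in the ESCs (log2 fold change 1.27 ± 0.31 [SE], FDR = 0.0214). The libraries overlapped, and leaving out any 1 of 5 of the 8 libraries (the first of each group or the second of TNG OKMS ESCs) removed the call. The median of the members other than *Lum*, which was at the floor on both sides, was 0.97. *Dcn* was at 2.28 and 4.61 and 0.206 and 1.25 CPM in iPSCs against 0.489 and 0.145 and 0.168 and 0.656 CPM in ESCs (log2 fold change 2.07 ± 1.02 [SE], FDR = 0.352).

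Other genes of the same families were followed through the same comparisons. Of 58 genes in 7 lists of related genes, 57 were tested, and 27 were called lower and 2 higher from MKOS MEFs to 2NG- cells, 39 lower and 1 higher from OKMS MEFs to E-CAD+ 2NG- cells, and 31 lower and 2 higher to E-CAD- 2NG- cells. Over all genes, 12%, 13.5%, and 10.1% were called lower in these comparisons. The median log2 fold changes of the related genes were -2.03, -3.57, and -2.37. Of 8 leucine-rich proteoglycans, 3 fell in each of these comparisons. In MKOS they were led by *Ogn*, encoding osteoglycin, from 444 to 34.9 CPM (log2 fold change -3.71 ± 0.52 [SE], FDR = 9.67e-07), and in OKMS E-CAD+ cells by *Bgn*, encoding biglycan, from 866 to 26.2 CPM (log2 fold change -4.94 ± 0.54 [SE], FDR = 4.25e-09). Of 13 genes of microfibrils and elastic fibers, 7 fell in MKOS, 11 in OKMS E-CAD+, and 7 in OKMS E-CAD- cells. *Mfap4*, of a microfibril-associated protein, went from 131 to 5.44 CPM in MKOS (log2 fold change -4.62 ± 1.09 [SE], FDR = 0.00131), and *Loxl1*, of an elastin cross-linking enzyme, from 108 to 1.94 CPM in OKMS E-CAD+ cells (log2 fold change -5.76 ± 0.92 [SE], FDR = 5.34e-06). Of 11 matricellular genes, 7, 8, and 7 fell in the same order. *Tgfbi* went from 495 to 9.95 CPM in MKOS (log2 fold change -5.66 ± 0.67 [SE], FDR = 2.35e-08), and *Tnc*, encoding tenascin-C, from 451 to 4.38 CPM in OKMS E-CAD+ cells (log2 fold change -6.80 ± 0.68 [SE], FDR = 6.31e-10), both with larger estimates than *Postn* and *Sparc*. Of 5 PDGF ligands and receptors, 2 fell in each comparison, among them *Pdgfra*, the α-receptor, from 183 to 2.77 CPM in MKOS (log2 fold change -6.10 ± 1.21 [SE], FDR = 0.000155) and from 70.4 to 2.54 CPM in OKMS E-CAD+ cells (log2 fold change -4.45 ± 1.15 [SE], FDR = 0.00276). Of 7 other fibroblast surface genes, 5 fell in MKOS, 6 in OKMS E-CAD+, and 4 in OKMS E-CAD- cells, and 1 rose in each. In MKOS *Nt5e* (CD73) rose from 0 reads in both MEF libraries to a mean of 5.16 CPM (FDR = 0.00273). Of 6 other genes of intermediate filaments and their linkers, 2, 4, and 3 fell. Of 7 other S100 genes tested, 1 fell and 1 rose in MKOS: *S100a11* went from 2245 to 804 CPM (log2 fold change -1.51 ± 0.42 [SE], FDR = 0.00562), and *S100a16* from 11.6 to 80.6 CPM (log2 fold change 2.79 ± 0.77 [SE], FDR = 0.00569). In OKMS 5 fell in E-CAD+ cells, and 5 fell and 1 rose in E-CAD- cells.

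Where the cassettes were compared, 15 of 57 related genes were lower and 0 higher in OKMS than in MKOS E-CAD+ 2NG- cells (median -1.25), against 2.84% and 2.23% of all genes, among them 4 of microfibrils and elastic fibers and 5 matricellular genes. *Mfap5* was at 53.3 CPM in MKOS and 4.86 CPM in OKMS (log2 fold change -3.27 ± 0.70 [SE], FDR = 0.00271), and *S100a13* at 224 and 16.02 CPM (log2 fold change -3.65 ± 0.37 [SE], FDR = 7.04e-09). *Lox*, of the collagen cross-linking enzyme, was at 61.6 and 7.73 CPM (log2 fold change -2.89 ± 0.64 [SE], FDR = 0.00380). In 3NG- cells 4 were lower, against 1.38% of all genes, and in 3NG+ cells 1, *Lox* (log2 fold change -2.88 ± 0.68 [SE], FDR = 0.0311), against 0.345%. From 3NG+ cells to iPSCs, 16 fell in MKOS and 4 in OKMS, against 1.32% and 0.313% of all genes, and none rose. *Thbs2*, of a thrombospondin, went from 7.30 CPM to 0 reads in MKOS, and *Ogn* from 11.03 CPM to 0 reads in OKMS. *Fbn2*, the relative of *Fbn1*, was the 1 related gene called between the OKMS E-CAD+ 2NG- and 3NG- gates. It went from 2.17 to 21.9 CPM (log2 fold change 2.95 ± 0.57 [SE], FDR = 0.0322). Over all genes 6 were called between these gates, and 0 with only these groups in the fit. On gain of *Nanog*-GFP, *Fbn2* went from 21.9 to 5.85 CPM (log2 fold change -1.89 ± 0.57 [SE], FDR = 0.0374). *Fbn1* itself, at 10.6, 9.35, and 12.3, then 21.3, 20.5, and 6.83, and then 12.2, 2.80, and 7.15 CPM, was called in neither step.

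Over the means of the 20 conditions, as log2(CPM + 1), the 45 pairs of members had Pearson's r of 0.66 to 0.97 (median 0.88), a description that rests largely on the gap between MEFs and all other conditions. Correlated with the average profile of all 10, which contains each of them, *Thy1* (r = 0.97) and *S100a4* (r = 0.97) were the most alike and *Fn1* (r = 0.84) the least so. The 10 genes outside the members whose profile was most like that average, over 20 condition means that share libraries and depth, were *Cdh11* (r = 0.99), *Prrx1* (r = 0.99), *Smoc2* (r = 0.99), *Tnc* (r = 0.99), *Serpinf1* (r = 0.99), *Cd248* (r = 0.99), *Cav1* (r = 0.99), *Igf2*, *Col6a1*, and *Adam12* (r = 0.98 each). *Cdh11*, which encodes a mesenchymal cadherin, averaged 218 CPM over the 6 MEF libraries and 0.865 CPM over the iPSC and ESC libraries, and *Prrx1*, a transcription factor of limb and other mesenchyme, 226 and 0.156 CPM. With a pseudocount of 0.1 in place of 1, 3 of these 10 genes were again among the 10 most alike.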

How the data were processed

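RNA of sorted populations and cultured cells (8 populations with 3 and 12 conditions with 2 libraries) was sequenced by STRT, which tags 5′ ends. The authors deposited raw read counts per transcript, with no molecular identifiers named, and reads with several positions assigned to the most 5′ exonic one. Per the labels, Bowtie 0.12.7 and mm10 were used, whereas the methods name mm9. Of plus-strand genes, 74.1% of 10322 in GRCm38 and 3.87% of 10758 in mm9 started at most 200 bases after their position in the count table, so GRCm38 was used here. Spike-in (104) and repeat (1554) rows were left out of totals, the repeats holding 14.2% to 33.1% of the mapped reads. CPM were computed from the counts of 24264 transcripts.

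Counts of all 48 libraries were fitted with 1 coefficient per condition in edgeR 4.0.16 (R 4.3.3; TMM, filterByExpr, 15630 genes, quasi-likelihood test), and 20 comparisons were made with Benjamini-Hochberg adjusted p-values (FDR) called at 0.05. DESeq2 1.42.0, other scalings, no filter, other sets of libraries, and a replicate block were alternatives. One set left out 7 libraries that are not part of averages in the supplement. The fit was tested on simulated data. The 10 genes, 7 related lists (58 genes), and 6 marker lists were chosen with earlier results of these data known. Named related genes were the 2 called genes per list with the largest change in a comparison, of which some are described, and the 10 genes most like the members by Pearson's r over condition means. Promoters came from RefSeq. Comparisons that start from or end in the same condition share its libraries. The share of all genes whose libraries did not overlap was counted for OKMS against MKOS in MEFs and 3NG+ cells only. In other comparisons a lack of overlap in a member stands without that share. Figures were drawn with Matplotlib 3.10.9 (Python 3.11.15).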

Additional observations from a re-analysis of the deposited data

How the results depend on the processing

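Numbers below count the members called out of 10. From MEFs to 2NG- cells, leaving out 1 library at a time gave 5 to 9 members in MKOS (9 with all libraries), 6 to 7 in OKMS E-CAD- (8), and 8 to 10 in OKMS E-CAD+ cells (9). With WT, MKOS, and OKMS MEFs averaged, the counts were 7, 9, and 9. For OKMS E-CAD- against E-CAD+ in 2NG- cells (1), the range was 1 to 5. It was 1 to 2 for MKOS 3NG+ to iPSCs (2), 0 to 2 for OKMS 3NG+ to iPSCs (2), 0 to 4 for OKMS against MKOS in 2NG- cells (4), 0 to 1 in 3NG- cells (1), 0 to 2 for 2i (0), and 0 to 1 for iPSCs against ESCs (1). In these fits a group left with 1 library is assumed to vary like the others. Without the filter on low counts, 7 and 6 members were called between E-CAD- and E-CAD+ cells in 2NG- and 3NG-, 3 between 2NG- and 3NG- in OKMS E-CAD+, 5 and 4 from 3NG- to 3NG+ in MKOS and OKMS, 8 and 5 from 3NG+ to iPSCs, 7 between cassettes in 3NG- cells, 3 in MEFs, 2 for 2i, 4 for iPSCs against ESCs, and 6 and 3 for the change from MEFs to 2NG- and from 3NG- to 3NG+ between cassettes; the cause was not tested. With only the groups compared in the fit, the counts were 2 and 1 between E-CAD- and E-CAD+ cells, 1 for MKOS 3NG- to 3NG+, 4 and 1 from 3NG+ to iPSCs, 2 and 4 between cassettes in 2NG- and 3NG-, 3 in MEFs, 0 for iPSCs against ESCs, and 1 for the change from MEFs between cassettes. Without scaling factors they were 2 and 1 between E-CAD- and E-CAD+ cells, 1 for MKOS 3NG- to 3NG+, 3 between cassettes in 3NG-, 1 for 2i, and 0 for iPSCs against ESCs, and with DESeq2 size factors 2 and 1 between E-CAD- and E-CAD+ cells. The DESeq2 Wald test called 2 and 2 between E-CAD- and E-CAD+ cells, 5 for MKOS 3NG+ to iPSCs, 3 between cassettes in 3NG-, and 1 for 2i. Another fit left out 7 libraries, replicate 3 of the 6 *Nanog*-GFP- populations and replicate 2 of OKMS 3NG+. It called 3 members between E-CAD- and E-CAD+ 2NG- cells, 0 in 3NG-, 1 and 1 from 3NG- to 3NG+, and 5 for MKOS 3NG+ to iPSCs. There *Lum* reversed from MKOS 3NG- to 3NG+ cells, with a log2 fold change of 3.83 (FDR = 0.0140, edgeR) in place of -0.56 ± 1.27. This fit lacks MKOS 3NG- replicate 3, with *Lum* at 77.4 CPM, but keeps MKOS 3NG+ replicate 3, at 37.8 CPM. Over all genes, no filter against the filter gave 843 against 372 calls between E-CAD- and E-CAD+ 2NG- cells and 660 against 274 in 3NG- cells. It gave 149 against 6 between 2NG- and 3NG- in OKMS E-CAD+. From 3NG- to 3NG+ it gave 887 against 247 in MKOS and 1453 against 979 in OKMS. From 3NG+ to iPSCs it gave 799 against 335 in MKOS and 384 against 96 in OKMS. Between cassettes it gave 1260 against 793 in 2NG-, 864 against 339 in 3NG-, and 174 against 16 in MEFs. For 2i the counts were 1025 against 679, and for iPSCs against ESCs 564 against 219. For the 2 changes between cassettes they were 624 against 211 and 163 against 4. With only the groups compared, all genes called were 176 and 101, 545, 283 and 58, 748 and 277, 360, 166, and 293, in the order above. Without scaling factors they were 341 and 223, 375, 394, 684, and 285, and with DESeq2 size factors 362 and 258. The DESeq2 Wald test called 574 and 421, 586, 566, and 1016. Without the 7 libraries they were 290 and 159, 559 and 1461, and 585. Of the values of single members under other settings, 2453 kept direction and side of the threshold, 59 lost and 123 gained a call, and 1 reversed.

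The replicate number as a block in the fit called 3 and 2 members between E-CAD- and E-CAD+ cells in 2NG- and 3NG-, 1 for MKOS 3NG- to 3NG+, and 3 between cassettes in 3NG-, and left the other counts within 1.5 times. Over all genes the block called 450 and 323, 422, and 446, in the same order. Deviations of same-numbered sorted libraries from their group means correlated with a mean r of 0.0949 over 84 pairs of populations. Their r ran from -0.0533 to 0.419, with 28 above 0.1. Over 168 pairs with different numbers the mean r was -0.0473 (-0.318 to 0.153), with 5 above 0.1. Same-numbered libraries were thus more alike, and *Lum* and *Lyz2* followed the number in most populations. No source ties the numbers to a shared origin, so the main fit did not pair the libraries. It does not account for any effect shared by replicate number. In simulated counts for OKMS against MKOS 2NG- cells over 13731 genes, 63 of 189 genes changed 4-fold were recovered. There every gene had the same dispersion and its mean over all libraries, so the rate for the members can differ.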
